A study of Mus musculus with 18 samples.

Results

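The genes described here are the carriers that move amino acids and neurotransmitters across the plasma membrane, together with their partners, in the hippocampus of mice given a cannabis extract during adolescence. They were taken by name: every gene whose array symbol begins with Slc1a, Slc3a, Slc6a, Slc7a or Slc38a, each read from its brightest probe over the 18 arrays. The rule gave 52 of the 19057 named genes, of which 7 were Slc1a, 1 was Slc3a, 19 were Slc6a, 15 were Slc7a and 10 were Slc38a. One of them, Slc7a6os, shares only its letters with the families, since it is the neighbour of Slc7a6 and encodes a different protein, so 51 are carriers or carrier chains. Slc3a1, Slc6a16, Slc7a5 and Slc38a6 had no named probe and are not analysed here.

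All mice were C57BL/6J and were fed by hand once a day for 14 days, from postnatal day 14 to 28, and total RNA of the dissected hippocampus was hybridised to Illumina bead arrays as biotin-labelled cRNA. The groups were adult mice fed the extract at 20 mg/kg per day (adult cannabis, 5 arrays), adult mice fed the carrier emulsion of sweetened condensed milk and olive oil (adult vehicle, 5 arrays), postnatal day 28 mice fed the extract (P28 cannabis, 4 arrays) and postnatal day 28 mice fed the emulsion (P28 vehicle, 4 arrays). The adults are labelled postnatal day 56; they had passed through behavioural tests and were killed 2 weeks after a phencyclidine challenge, whereas the P28 mice were killed 70 to 80 min after feeding began, so age cannot be told apart from that history. Since no label states that the arrays of a group came from different animals, a p-value here covers the spread between arrays, which may be partly technical.

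The families divide the work of amino acid transport at synapses and between neurons and glia. The excitatory amino acid transporters of Slc1a clear glutamate from the synaptic cleft, mostly into astrocytes, which return it to neurons as glutamine through Slc38a carriers of system N (release) and system A (uptake). Slc6a holds the sodium- and chloride-coupled carriers that end GABA, glycine and monoamine signalling, and Slc7a holds the cationic amino acid carriers and the light chains that work only when bound to a heavy chain such as Slc3a2.

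The labels were first set against marker genes. Values are log2 intensities on one common distribution with a median of 6.86 per array, and arrays of one group correlated at 0.981 to 0.995. Astrocyte, endothelial, excitatory neuron and interneuron markers of the hippocampus were measured in every group; for 8 astrocyte markers the log2 of the summed intensity had a median of 14.19 in adult cannabis, 14.08 in adult vehicle, 14.21 in P28 cannabis and 14.27 in P28 vehicle. Markers of choroid plexus epithelium differed between arrays. All 8 were above background on at least 4 arrays, but Kcne2, Aqp1 and Otx2 on only 5 and Folr1 on 6. The adult group means of those named lay between 6.76 and 6.94, under the background level of 6.98. The summed level of the 8 ran from 10.74 to 11.29 in adult cannabis and 10.29 to 11.78 in adult vehicle. It ran from 12.04 to 14.72 in P28 cannabis and 10.40 to 13.95 in P28 vehicle, and none of the 8 passed the test. Oligodendrocyte markers fell in adult against P28 vehicle mice, with 5 of 7 (Mag, Mog, Cnp, Opalin and Mbp) past the threshold, as did the haemoglobin gene Hba-a1. The age labels were used as given and no marker here checks them independently; the sign of every adult minus P28 difference rests on them. Arrays numbered 4 and 5 in their groups also stood apart from those numbered 1 to 3: 4311 of the 18249 probes tested differed between them with groups taken into account, among them 10 of the 32 transporter genes that could be tested.

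Of the 52 genes, 32 (61.5%) were above background, defined as a log2 value over 6.98 on at least 4 arrays, against 54.7% of all named genes; 25 of the 32 were above it on all 18 arrays. All 5 glutamate carriers were above background: Slc1a3 (GLAST) and Slc1a2 (GLT-1), the carriers of astrocytes, Slc1a1 (EAAC1), the carrier of neurons, Slc1a6 (EAAT4), known from Purkinje cells of the cerebellum, on 16 arrays, and Slc1a7 (EAAT5), known from the retina, on 13. All 5 measured carriers of GABA, taurine and creatine were also present, although Slc6a12 passed on 9 arrays. The 3 monoamine carriers, Slc6a2 for noradrenaline, Slc6a3 for dopamine and Slc6a4 for serotonin, exceeded background on no array of any group. The cell bodies that make these proteins lie outside the hippocampus. Of 6 markers of such neurons, 2 (Ddc and Tph2) were above background, on all 18 arrays. Th, Dbh and Slc18a2 were not, and Fev had no named probe. Why the 3 carriers read at background was not tested.

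The remaining genes not above background were Slc1a5 among the neutral exchangers, the glycine carrier Slc6a5, the amino acid carriers Slc6a14, Slc6a18, Slc6a19, Slc6a20a and Slc6a20b, and Slc6a21. In Slc7a they were Slc7a1, Slc7a7, Slc7a9, Slc7a12, Slc7a13 and Slc7a15, and in Slc38a they were Slc38a1, Slc38a4 and Slc38a8. Means over 18 arrays of the 20 genes lay between 6.69 and 6.91, 14 of them exceeding the level on no array and 6 on 1 to 3 arrays. A probe at that level gives no order of values, so none of the 20 was compared between groups. Slc38a1, the system A carrier known from GABA neurons, had no probe above background among 4 on the array, so its low reading is a statement about these probes.

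**Figure D1:**
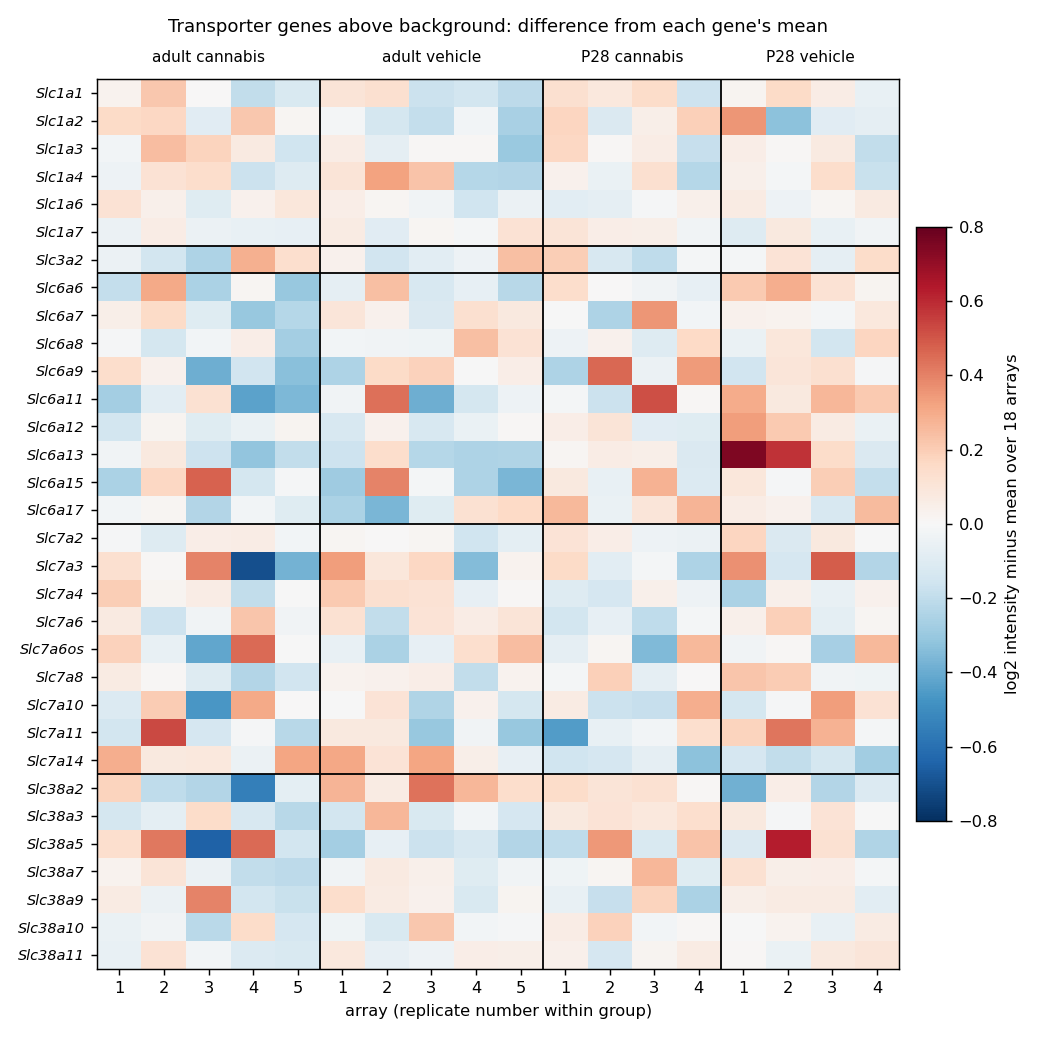
Each row is one of the 32 transporter genes above background, each column one array, and the colour gives the log2 intensity minus that gene's mean over 18 arrays; thick lines part the groups and the 5 families. The darkest red cells are Slc6a13 in P28 vehicle replicate 1 (7.97) and Slc38a5 in P28 vehicle replicate 2 (8.94), and no family is uniformly red or blue in any group.

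Exposure to the extract left no transporter gene past the threshold in the adults. In adult cannabis against adult vehicle mice, 0 of 32 genes had an adjusted p under 0.05 (limma with Benjamini-Hochberg adjustment over all probes), where 0 of 18249 probes did, a share of 0%. At an unadjusted p under 0.05 there were 2 genes, Slc38a2 and Slc1a2, against 3.55% of all probes. The 32 differences had a median of -0.017, with 14 above 0 and 18 below, and all probes had a median of 0.001. No gene had adult groups that did not overlap, against 0.362% of all probes.

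At P28, shortly after the last feed, 0 of 32 genes passed in cannabis against vehicle mice, and the share of all probes was again 0%. The 2 genes with an unadjusted p under 0.05 were Slc6a13 and Slc38a2, against 1.79% of all probes. The median of the 32 differences was -0.021, with 12 above 0 and 20 below, against -0.001 over all probes. Both the Slc7a light chains (4 of 4 below 0, median -0.113) and the GABA, taurine and creatine carriers (5 of 5 below 0, median -0.146) lay on one side of 0 at P28. Over all probes, 9050 differences lay above 0 and 9199 below. Among the second group Slc6a8 was at -0.002, and Slc6a12 and Slc6a13 read close to background. In adults the light chains were divided 2 and 2 and the GABA, taurine and creatine carriers 2 above and 3 below. No gene had P28 groups that did not overlap, against 1.59% of all probes.

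The difference between the adult and the P28 cannabis differences was tested as an interaction, and again 0 of 32 genes and 0% of probes passed. Its single gene at an unadjusted p under 0.05 was Slc38a2, against 2.91% of all probes. What the arrays leave room for can be read from the 95% intervals: the whole interval lay within 0.5 log2 units of 0 for 29 of 32 genes in adults, 28 of 32 at P28 and 23 of 32 for the interaction. The number of arrays and the spread of each probe set this precision. In adults the SE ran from 0.05 for Slc1a7, which read close to background, to 0.19 for Slc38a5.

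**Figure D2:**
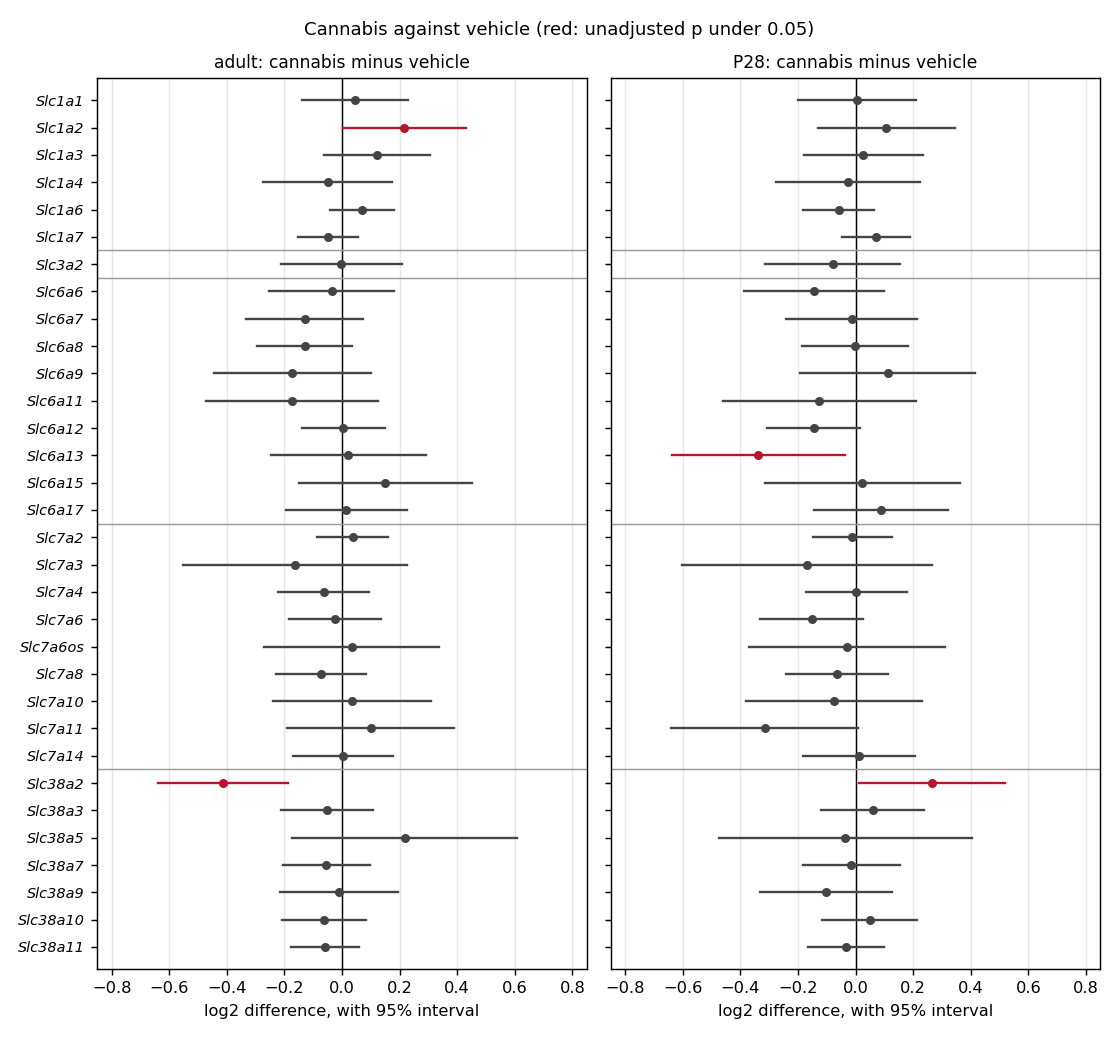
Log2 difference, cannabis minus vehicle, of the 32 genes above background in adults (left) and at P28 (right), with 95% intervals from limma; red marks an unadjusted p under 0.05. Slc38a2 lies at -0.41 in adults and 0.27 at P28, Slc1a2 at 0.22 in adults and Slc6a13 at -0.34 at P28, and none has an adjusted p under 0.05.

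Between adult and P28 mice 0 of 32 genes passed, in either treatment. Among vehicle mice the share of probes called was 1.07%, and among cannabis mice it was 0.0274%. At an unadjusted p under 0.05 there were 5 genes in vehicle mice (13.5% of all probes) and 3 in cannabis mice (10.6% of all probes). Slc7a14, Slc6a13 and Slc38a2 had the lowest adjusted p-values in vehicle mice, 0.0758, 0.0883 and 0.0939. The median of the 32 differences was -0.041 in cannabis mice and -0.061 in vehicle mice, against 0.004 and 0.006 over all probes. Slc7a14 had adult and P28 groups that did not overlap in both treatments, and Slc38a2 in vehicle mice, against 2.70% of probes in cannabis mice and 6.20% in vehicle mice.

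**Figure D3:**
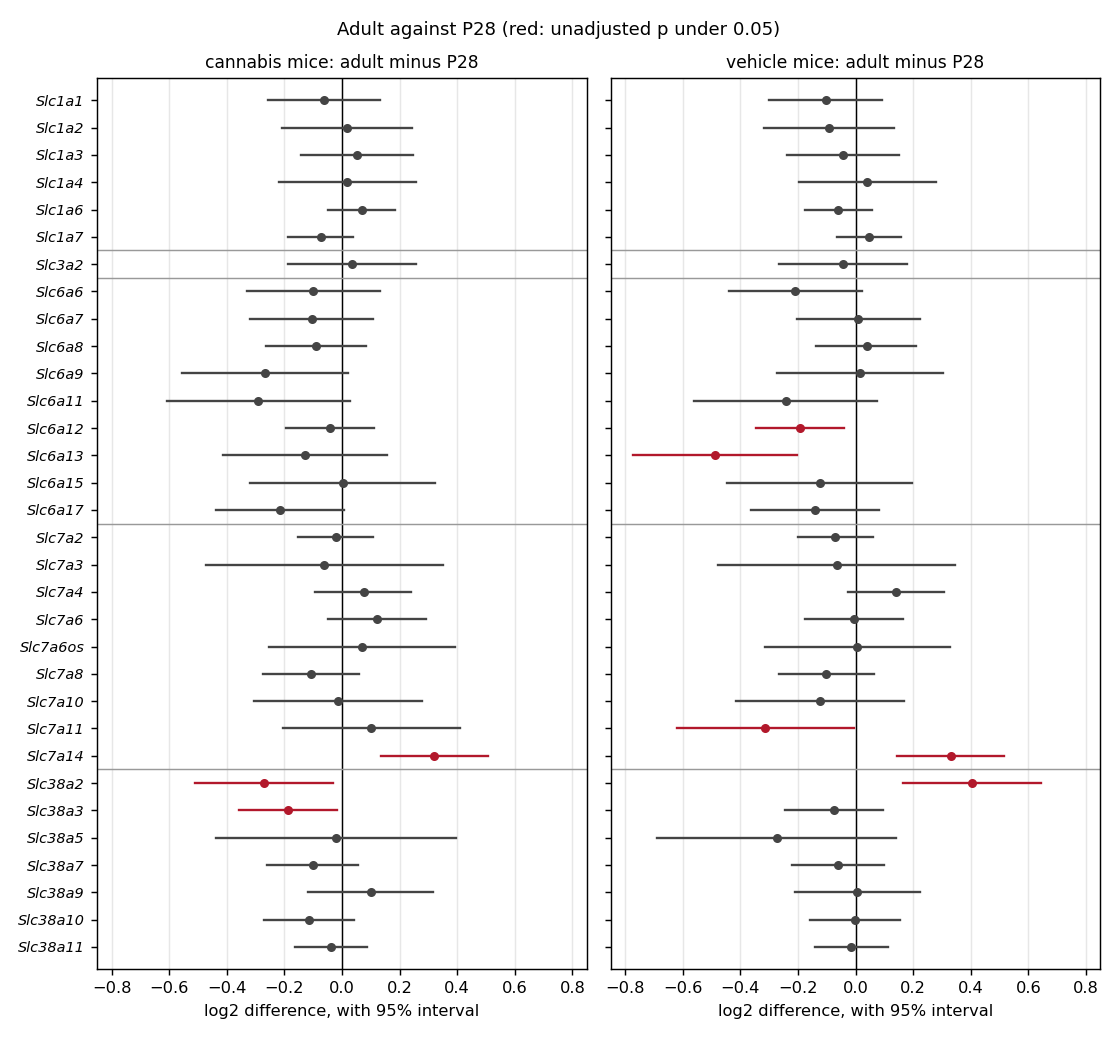
Log2 difference, adult minus P28, of the 32 genes in cannabis mice (left) and vehicle mice (right), with 95% intervals from limma; red marks an unadjusted p under 0.05. Slc7a14 lies at 0.32 and 0.33, while Slc38a2 lies on opposite sides of 0, at -0.27 in cannabis mice and 0.40 in vehicle mice.

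Among the glutamate carriers, the astrocyte carrier Slc1a2, which clears most synaptic glutamate in the forebrain, had 10.34, 10.36, 10.10, 10.40 and 10.20 in adult cannabis mice, against 10.17, 10.05, 10.00, 10.17 and 9.93 in adult vehicle mice. All 5 cannabis arrays lay above the vehicle mean, and 1 of them within the vehicle range. The log2 difference was 0.22 ± 0.10 (SE; limma adjusted p = 0.9998, unadjusted p = 0.047). A second probe of the gene gave 0.20, and the dimmest, near background, 0.015. At P28 Slc1a2 had 10.36, 10.07, 10.24 and 10.38 in cannabis mice, against 10.54, 9.86, 10.10 and 10.12 in vehicle mice. The P28 cannabis arrays all lay inside the vehicle range, with a difference of 0.11 ± 0.11, and the dimmest probe gave -0.03. The interaction was 0.11 ± 0.15, and the adult minus P28 difference was 0.02 ± 0.11 in cannabis mice and -0.09 ± 0.11 in vehicle mice, where the dimmest probe gave 0.01. Leaving out 1 array at a time kept the adult difference between 0.18 and 0.26.

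Slc1a3, the other astrocyte carrier, averaged 13.72 ± 0.16 in adult cannabis and 13.59 ± 0.14 in adult vehicle mice (SD, n = 5 each), and 13.66 ± 0.15 in P28 cannabis and 13.64 ± 0.12 in P28 vehicle mice (SD, n = 4 each). Its cannabis differences were 0.12 ± 0.09 in adults and 0.03 ± 0.10 at P28 (SE), with an interaction of 0.10 ± 0.13, and its adult minus P28 differences were 0.05 ± 0.09 in cannabis mice and -0.04 ± 0.09 in vehicle mice. The neuronal carrier Slc1a1 differed between treatments by 0.05 ± 0.09 in adults and 0.00 ± 0.10 at P28, with an interaction of 0.04 ± 0.13. Between ages it differed by -0.06 ± 0.09 in cannabis mice and -0.10 ± 0.09 in vehicle mice. Its second probe had the opposite sign in adults (-0.02), for the interaction (-0.06) and between ages in vehicle mice (0.02). The summed level of the astrocyte markers, the cells that carry Slc1a2 and Slc1a3, ran from 14.11 to 14.31 in adult cannabis and 14.08 to 14.25 in adult vehicle mice. In this bulk tissue fewer cells of a type and less RNA per cell cannot be told apart. Between ages the 5 glutamate carriers differed by -0.07 to 0.07 in cannabis mice and -0.10 to 0.05 in vehicle mice, and none had an unadjusted p under 0.05.

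Slc1a6 and Slc1a7, close to background, were the pair of glutamate carriers with the smallest p for the interaction, at 0.13 ± 0.08 and -0.12 ± 0.07 (SE; limma adjusted p = 0.9996 for each). Their group means span only 7.04 to 7.11 for Slc1a6 and 7.01 to 7.08 for Slc1a7. The neutral amino acid exchanger Slc1a4 (ASCT1), which carries serine, differed by -0.05 ± 0.11 in adults and -0.03 ± 0.12 at P28, with an interaction of -0.02 ± 0.16, and by 0.02 ± 0.11 between ages in cannabis mice and 0.04 ± 0.11 in vehicle mice. It was one of the genes that set the arrays numbered 4 and 5 apart: these were lower by 0.30 ± 0.05 (SE; limma adjusted p = 0.000527), more than any difference between its groups.

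Among the carriers of GABA, taurine and creatine, Slc6a13 (GAT2), a GABA and taurine carrier known from the meninges and from liver and kidney, had 7.20, 7.31, 7.06, 6.92 and 7.03 in adult cannabis mice, against 7.06, 7.37, 7.00, 6.98 and 6.99 in adult vehicle mice. Several adult arrays thus read at or just above the background level of 6.98, and adult cannabis replicate 4 below it. At P28 it had 7.24, 7.29, 7.28 and 7.11 in cannabis mice, against 7.97, 7.80, 7.38 and 7.12 in vehicle mice. Replicates 1 and 2 of P28 vehicle were thus above every other array of the series, and replicate 4 was level with P28 cannabis replicate 4. The P28 cannabis difference was -0.34 ± 0.14 (SE; limma adjusted p = 0.9999, unadjusted p = 0.0294), -0.45 within replicates 1 to 3 and -0.003 in replicate 4 alone. The adult cannabis difference was 0.02 ± 0.13 and the interaction 0.36 ± 0.19 (limma adjusted p = 0.9996). Between adult and P28 vehicle mice it was -0.49 ± 0.13 (SE; limma adjusted p = 0.0883) and -0.13 ± 0.13 between adult and P28 cannabis mice. With the sets of 6 arrays in order of deposit as a block the vehicle difference was -0.42 with an adjusted p of 0.0464, and without P28 vehicle replicate 4 or without adult vehicle replicate 2 it also passed.

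Slc6a12 (BGT1), a betaine and GABA carrier, is the gene next to Slc6a13 on chromosome 6 and read close to background. It had 6.84, 7.01, 6.89, 6.94 and 7.01 in adult cannabis mice, against 6.86, 7.03, 6.86, 6.93 and 7.00 in adult vehicle mice, and 7.04, 7.10, 6.90 and 6.89 in P28 cannabis mice, against 7.32, 7.20, 7.05 and 6.94 in P28 vehicle mice. P28 vehicle replicates 1 and 2 were again the 2 highest of 18. Its P28 cannabis difference was -0.15 ± 0.08 (SE; limma adjusted p = 0.9999), and the adult minus P28 difference was -0.04 ± 0.07 in cannabis mice and -0.19 ± 0.07 in vehicle mice (limma adjusted p = 0.233 for the second).

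Markers of fibroblasts of the meninges and vessels were read beside these genes. Of 8 markers, 5 were above background and Col3a1, Aldh1a2 and Islr were not. Their summed level was 10.69, 10.19, 10.59 and 10.65 in P28 cannabis replicates 1 to 4, against 11.20, 10.42, 10.69 and 10.09 in P28 vehicle replicates 1 to 4. P28 vehicle replicate 1, the highest array for Slc6a13 and Slc6a12, was also the highest of the 18 for these markers, and replicate 2 was not set apart. The summed choroid plexus level was 12.04, 14.46, 13.84 and 14.72 in P28 cannabis, against 11.45, 10.83, 13.95 and 10.40 in P28 vehicle. P28 vehicle replicates 1 and 2, the highest for Slc6a13, lay below replicate 3 and above replicate 4 in these markers. Replicate 3, the next highest for Slc6a13, was the highest of its group. The part of either tissue in the result was not tested.

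**Figure D4:**
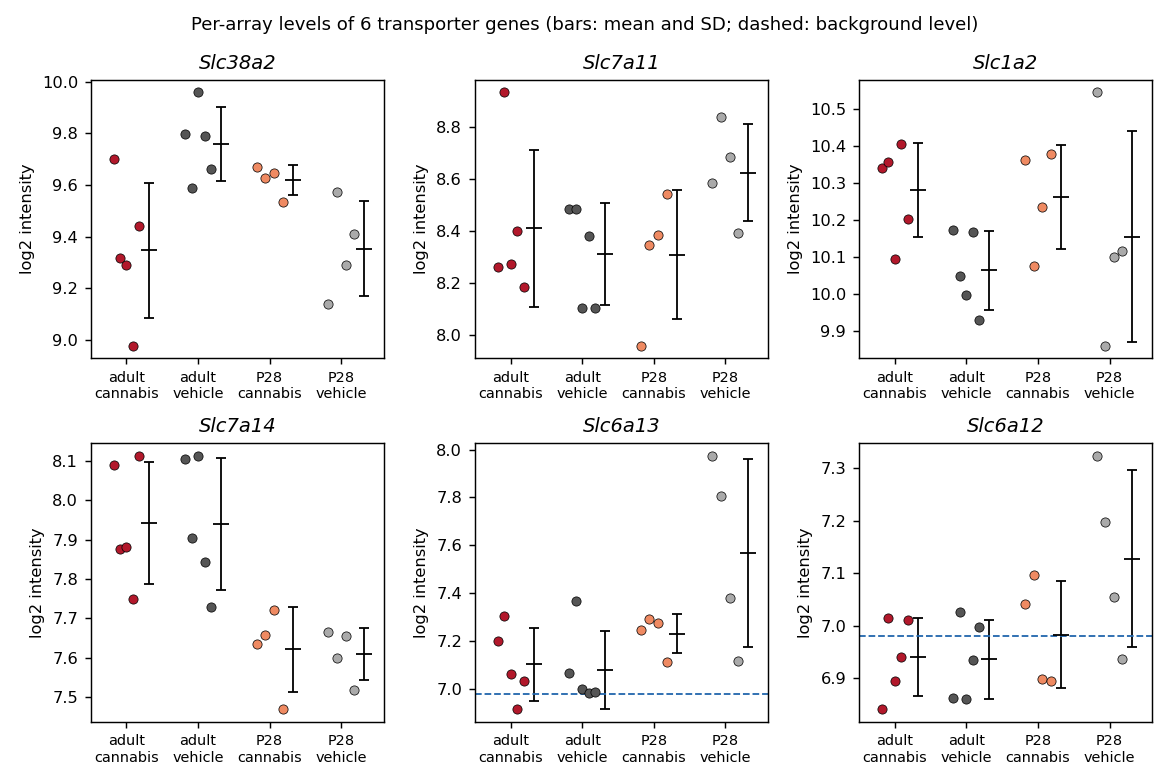
Log2 intensity on each array of 6 transporter genes, by group from adult cannabis on the left to P28 vehicle on the right, with the mean and SD beside the points and the background level dashed where it falls in the panel. Slc7a14 is higher on every adult array than on any P28 array, and Slc6a13 reaches 7.97 and 7.80 on 2 P28 vehicle arrays and 7.38 or less on all others.

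Slc6a11 (GAT3), the astrocyte GABA carrier, had 7.27, 7.46, 7.66, 7.11 and 7.18 in adult cannabis mice, against 7.51, 7.98, 7.15, 7.40 and 7.50 in adult vehicle mice. It had 7.52, 7.37, 8.06 and 7.55 in P28 cannabis mice, against 7.84, 7.62, 7.81 and 7.75 in P28 vehicle mice. The cannabis differences were -0.17 ± 0.14 in adults and -0.13 ± 0.16 at P28, with an interaction of -0.05 ± 0.21, and the adult minus P28 differences were -0.29 ± 0.15 in cannabis mice and -0.24 ± 0.15 in vehicle mice (SE). None had an unadjusted p under 0.05, and the intervals leave room for a difference of up to 0.61 in size between adult and P28 cannabis mice. Slc6a6, the taurine carrier, differed between treatments by -0.04 ± 0.10 in adults and -0.15 ± 0.12 at P28, with an interaction of 0.11 ± 0.16, and by -0.10 ± 0.11 between ages in cannabis mice and -0.21 ± 0.11 in vehicle mice. Slc6a8, the creatine carrier, differed by -0.13 ± 0.08 in adults and -0.002 ± 0.087 at P28.

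Slc6a9 (GlyT1), which removes glycine around glutamate synapses, had 9.97, 9.86, 9.44, 9.68 and 9.49 in adult cannabis mice, against 9.58, 10.29, 9.78 and 10.17 in P28 cannabis mice. The ranges overlapped widely, and the adult minus P28 difference in cannabis mice was -0.27 ± 0.14 (SE; limma adjusted p = 0.514), against 0.02 ± 0.14 in vehicle mice. The cannabis differences were -0.17 ± 0.13 in adults and 0.11 ± 0.14 at P28, with an interaction of -0.28 ± 0.19. Among the proline and neutral amino acid carriers, Slc6a7 (the proline carrier PROT of glutamate terminals) differed by -0.13 ± 0.10 in adults, where replicates 1 to 3 alone gave 0.03, and by -0.01 ± 0.11 at P28. Slc6a17 (NTT4), found on synaptic vesicles, averaged 10.49 ± 0.10 in adult cannabis and 10.70 ± 0.15 in P28 cannabis mice (SD), a difference of -0.22 ± 0.11 (SE; limma adjusted p = 0.492). Its second probe, at the edge of background, gave 0.04 for the same comparison. Slc6a15 (B0AT2) differed by 0.15 ± 0.14 in adults and 0.02 ± 0.16 at P28.

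The cystine-glutamate exchanger xCT is the light chain Slc7a11 bound to Slc3a2, and it is known to release glutamate from astrocytes in return for cystine. Slc7a11 had 8.26, 8.93, 8.28, 8.40 and 8.18 in adult cannabis mice, against 8.48, 8.49, 8.11, 8.38 and 8.10 in adult vehicle mice. At P28 it had 7.96, 8.35, 8.38 and 8.54 in cannabis mice, against 8.59, 8.84, 8.69 and 8.39 in vehicle mice. The P28 difference was -0.32 ± 0.15 (SE; limma adjusted p = 0.9999) and all 4 cannabis arrays lay below the vehicle mean, but replicate 4 alone gave 0.15 and the second probe, close to background, gave -0.05. In adults the difference was 0.10 ± 0.14, where the second probe gave -0.01, and the interaction was 0.41 ± 0.21 (limma adjusted p = 0.9996). Between ages it was 0.10 ± 0.15 in cannabis mice and -0.31 ± 0.15 in vehicle mice (limma adjusted p = 0.362 for the second).

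Slc3a2 (CD98), the heavy chain of xCT and of the large neutral amino acid carriers, exceeded background on 13 of 18 arrays. It averaged 7.09 ± 0.21 in adult cannabis and 7.09 ± 0.15 in adult vehicle mice, and 7.05 ± 0.17 in P28 cannabis and 7.13 ± 0.10 in P28 vehicle mice (SD). Its differences were -0.002 ± 0.100 in adults, -0.08 ± 0.11 at P28, 0.03 ± 0.11 between ages in cannabis mice and -0.04 ± 0.11 in vehicle mice (SE), with an interaction of 0.08 ± 0.15. Slc7a6 (y+LAT2), another partner of Slc3a2, had 7.14, 7.23, 7.09 and 7.28 in P28 cannabis mice, against 7.33, 7.48, 7.22 and 7.31 in P28 vehicle mice, a difference of -0.15 ± 0.08 (SE; limma adjusted p = 0.9999). In adults it differed by -0.02 ± 0.08. Slc7a8 (LAT2) and Slc7a10 (Asc-1), which carries D-serine and glycine, differed by -0.07 ± 0.07 and 0.04 ± 0.13 in adults and by -0.06 ± 0.08 and -0.07 ± 0.15 at P28.

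Among the cationic carriers, Slc7a14 was the transporter gene with the smallest p between ages in both treatments. It is a member of the CAT group found in lysosomes and in neurons. It had 8.09, 7.88, 7.88, 7.75 and 8.11 in adult cannabis mice, against 7.63, 7.66, 7.72 and 7.47 in P28 cannabis mice. In vehicle mice it had 8.11, 7.91, 8.11, 7.84 and 7.73 in adults, against 7.66, 7.60, 7.65 and 7.52 at P28. On this probe every adult array lay above every P28 array. The adult minus P28 difference was 0.32 ± 0.09 in cannabis mice (SE; limma adjusted p = 0.156) and 0.33 ± 0.09 in vehicle mice (limma adjusted p = 0.0758). These differences use separate arrays for each treatment, and the interaction was -0.01 ± 0.12.

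The second Slc7a14 probe gave 0.26 between ages in cannabis mice and 0.15 in vehicle mice, and its vehicle groups overlapped, with 7.71, 7.66, 7.70, 7.73 and 7.48 in adults, against 7.67, 7.53, 7.36 and 7.45 at P28. With the sets of 6 arrays in order of deposit as a block, which hold 2, 4 and 4 adult arrays and 4, 2 and 2 P28 arrays, the difference passed in both treatments, at 0.36 in cannabis mice (limma adjusted p = 0.0448) and 0.36 in vehicle mice (limma adjusted p = 0.0204). The cannabis difference of this gene was 0.00 ± 0.08 in adults and 0.01 ± 0.09 at P28. The oligodendrocyte markers, which differed between the same ages, had a summed level of 13.89 to 14.57 in adult cannabis, 13.63 to 14.41 in adult vehicle, 14.68 to 15.43 in P28 cannabis and 14.90 to 15.21 in P28 vehicle mice. Their part in the result was not tested. Slc7a3 (CAT3), the carrier of cationic amino acids of neurons, spread from 7.52 to 8.62 within adult cannabis mice and differed by -0.16 ± 0.18 in adults and -0.17 ± 0.21 at P28; it was lower by 0.47 ± 0.10 on arrays numbered 4 and 5. Slc7a2 (CAT2) and Slc7a4 differed by 0.04 ± 0.06 and -0.06 ± 0.08 in adults and by -0.01 ± 0.07 and 0.00 ± 0.08 at P28. Slc7a6os, which is no carrier, differed by 0.03 ± 0.14 in adults and -0.03 ± 0.16 at P28, and was higher by 0.34 ± 0.08 on arrays numbered 4 and 5 (limma adjusted p = 0.0084).

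Slc38a2 (SNAT2), the system A carrier that brings glutamine and other neutral amino acids into cells and is itself induced when amino acids are short, was the transporter gene with the smallest p between treatments in adults and for the interaction. In adults it had 9.70, 9.32, 9.29, 8.98 and 9.44 in cannabis mice, against 9.80, 9.59, 9.96, 9.79 and 9.66 in vehicle mice. At P28 it had 9.67, 9.63, 9.65 and 9.54 in cannabis mice, against 9.14, 9.57, 9.29 and 9.41 in vehicle mice. In adults 4 of 5 cannabis arrays lay below the whole vehicle range, and at P28 3 of 4 cannabis arrays lay above it. The cannabis difference was -0.41 ± 0.11 in adults (SE; limma adjusted p = 0.9998, unadjusted p = 0.00124) and 0.27 ± 0.12 at P28 (limma adjusted p = 0.9999, unadjusted p = 0.0408), and the interaction was -0.68 ± 0.16 (limma adjusted p = 0.9996, unadjusted p = 0.000547). Without any 1 array the interaction stayed between -0.77 and -0.58, and within replicates 1 to 3 it was -0.66.

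Between ages, the same probe gave -0.27 ± 0.11 in cannabis mice (SE; limma adjusted p = 0.405) and 0.40 ± 0.11 in vehicle mice (limma adjusted p = 0.0939). These comparisons share their arrays with the cannabis comparisons and are no separate observation. The lowest adult vehicle array and the highest P28 vehicle array were 9.59 and 9.57. With the sets of 6 arrays as a block the vehicle difference was 0.44 with an adjusted p of 0.0446, and without adult cannabis replicate 4 it also passed. The genes on either side of Slc38a2 on chromosome 15, Slc38a1 and Slc38a4, were not above background.

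The 3 Slc38a2 probes did not give one answer. The brightest, used above, is ILMN_1244123, with a mean of 9.52. The second, ILMN_2955671, with a mean of 9.12, had 9.49, 8.99, 8.59, 9.27 and 9.39 in adult cannabis mice, against 9.07, 8.86, 9.45, 9.76 and 9.54 in adult vehicle mice, and 8.95, 9.12, 8.40 and 9.32 in P28 cannabis mice, against 8.64, 9.17, 8.82 and 9.28 in P28 vehicle mice. Its groups overlapped throughout. It gave -0.19 for the adult cannabis difference, -0.03 at P28 and -0.16 for the interaction, so the P28 sign of the brightest probe was not seen in it. Between ages it gave 0.20 in cannabis mice, opposite in sign to the brightest probe, and 0.36 in vehicle mice. The third, ILMN_2721692, lay at the edge of background with a mean of 7.01 and gave no difference larger than 0.03 in size. Averaged over the 3 probes, the interaction was -0.28.

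**Figure D5:**
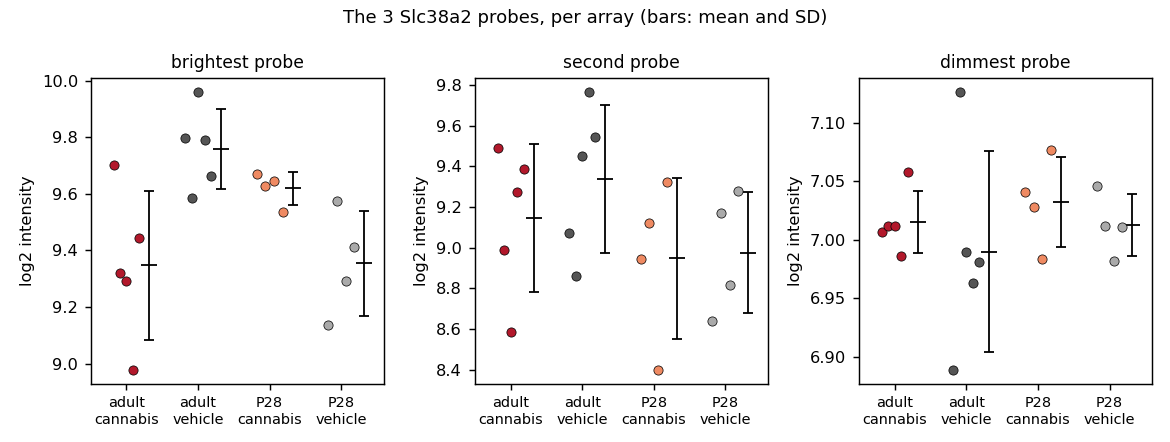
Log2 intensity of the 3 Slc38a2 probes on each array, by group from adult cannabis on the left to P28 vehicle on the right, with mean and SD beside the points and a separate axis for each probe. The brightest probe has P28 cannabis at 9.54 to 9.67 above most P28 vehicle arrays, whereas the second has P28 cannabis from 8.40 to 9.32 across the whole P28 vehicle range.

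The system N carriers, which release glutamine from astrocytes, were Slc38a3 and Slc38a5. Slc38a3 (SNAT3) had 7.20, 7.26, 7.49, 7.21 and 7.12 in adult cannabis mice, against 7.42, 7.45, 7.43 and 7.48 in P28 cannabis mice. All adult arrays but replicate 3 lay below the P28 range, and the difference was -0.19 ± 0.08 (SE; limma adjusted p = 0.426, unadjusted p = 0.0341), against -0.07 ± 0.08 in vehicle mice. Its cannabis differences were -0.05 ± 0.08 in adults and 0.06 ± 0.09 at P28, with an interaction of -0.11 ± 0.12. Slc38a5 (SNAT5) was among the least even genes, from 7.66 to 8.76 within adult cannabis mice, and its cannabis difference in adults of 0.22 ± 0.19 lay well within that spread. Slc38a9, the lysosomal arginine sensor of the mTORC1 pathway, differed by -0.01 ± 0.10 in adults and -0.10 ± 0.11 at P28, and Slc38a7, Slc38a10 and Slc38a11 by -0.06 to -0.05 in adults and by -0.03 to 0.05 at P28.

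The upstream sequence is shown for Slc38a2, Slc7a11, Slc7a14 and Slc6a13, chosen after their values were seen because the text dwells on them. Each window is the 250 bases before the transcription start in RefSeq's table for GRCm38.p6, on the gene's own strand, 5′ to 3′; 38 of the 52 genes had a window there. Capitals mark matches on either strand to 4 short motifs: TGATGNAA, the core of the CCAAT-enhancer binding protein and ATF4 response element of amino acid response genes, TGACNNNGC, the core of the antioxidant response element, the TATA box TATAAA and the GC box GGGCGG. Slc38a2 lies at chr15:96699729-96699978 on the minus strand, Slc7a11 at chr3:50443614-50443863 on the minus strand, Slc7a14 at chr3:31310320-31310569 on the minus strand and Slc6a13, the first of 3 starts, at chr6:121300038-121300287 on the plus strand.
Slc38a2: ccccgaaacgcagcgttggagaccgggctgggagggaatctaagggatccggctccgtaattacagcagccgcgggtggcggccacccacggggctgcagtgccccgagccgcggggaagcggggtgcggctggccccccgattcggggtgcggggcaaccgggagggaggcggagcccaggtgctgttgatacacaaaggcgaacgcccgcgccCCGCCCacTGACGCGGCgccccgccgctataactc
Slc7a11: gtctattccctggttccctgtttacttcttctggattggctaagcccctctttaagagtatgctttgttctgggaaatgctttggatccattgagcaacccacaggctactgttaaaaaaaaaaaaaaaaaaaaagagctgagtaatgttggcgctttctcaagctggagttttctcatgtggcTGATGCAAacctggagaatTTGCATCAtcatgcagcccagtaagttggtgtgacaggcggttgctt
Slc7a14: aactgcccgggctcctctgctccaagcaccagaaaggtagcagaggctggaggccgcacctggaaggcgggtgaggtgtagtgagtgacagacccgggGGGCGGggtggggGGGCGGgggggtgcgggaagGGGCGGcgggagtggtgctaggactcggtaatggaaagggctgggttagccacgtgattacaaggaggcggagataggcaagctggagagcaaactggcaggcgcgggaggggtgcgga
Slc6a13: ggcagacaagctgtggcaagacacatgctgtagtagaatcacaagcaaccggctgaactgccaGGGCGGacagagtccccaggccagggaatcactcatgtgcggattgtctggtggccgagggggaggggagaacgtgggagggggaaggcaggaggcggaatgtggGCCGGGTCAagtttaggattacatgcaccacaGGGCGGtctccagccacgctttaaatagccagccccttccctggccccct

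Slc7a11, long known as an ATF4 target, holds TGATGNAA at 2 places, 66 to 59 and 47 to 40 bases before its start and on opposite strands. That motif occurs in 3.5% of the 32851 windows in the table. Slc38a2 holds TGACNNNGC 27 to 19 bases before its start, a motif in 10.2% of windows, and no TGATGNAA; the response element described for this gene lies in its first intron, outside the window. Slc7a14 holds GGGCGG at 3 places, Slc6a13 at 2 and Slc38a2 at 1, 35 to 30 bases before its start. Of all windows, 32.7% hold at least 1. Slc6a13 also holds TGACNNNGC 82 to 74 bases before its start. TATAAA, found in 12.4% of windows, is in none of the 4. No matches overlapped, and a match describes these letters only.

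Genes that work with these carriers were read as lists, and no list had a member past the threshold in any comparison. Of the vesicular transporters, which load transmitters into vesicles, 4 of 7 were above background. The vesicular GABA carrier Slc32a1 differed by -0.18 ± 0.07 in cannabis against vehicle adults, and by -0.30 ± 0.08 in adult against P28 cannabis mice (SE; limma adjusted p = 0.128), with an interaction of -0.23 ± 0.11. It is also one of the interneuron markers, of which all 7 above background lay below 0 in cannabis against vehicle adults, with a median of -0.146 and none past the threshold; their part in the result was not tested. The vesicular glutamate carrier Slc17a7 differed between ages by -0.26 ± 0.09 in cannabis mice and -0.27 ± 0.09 in vehicle mice (limma adjusted p = 0.273 and 0.166), and between treatments by -0.09 ± 0.08 in adults and -0.10 ± 0.09 at P28. Slc17a6, the vesicular glutamate carrier known from the thalamus, was uneven, with -0.35 ± 0.42 at P28, -0.56 ± 0.40 between ages in vehicle mice and 0.54 ± 0.57 for the interaction. All 4 measured genes of this list lay below 0 between ages in both treatments, with medians of -0.202 in cannabis and -0.167 in vehicle mice.

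Of the enzymes of glutamate and GABA metabolism, 7 of 10 were above background, with a median of -0.000 in adults and -0.012 at P28 for cannabis against vehicle. Gad2, a GABA-making enzyme, differed by -0.16 ± 0.07 in adults (SE; limma adjusted p = 0.9998), with an interaction of -0.11 ± 0.11. Glul, the glutamine synthetase of astrocytes, differed by -0.21 ± 0.24 at P28 and by 0.29 ± 0.23 between ages in cannabis mice, with an interaction of 0.32 ± 0.33. The mitochondrial enzymes gave small values: Glud1 0.07 ± 0.09 between treatments in adults and -0.12 ± 0.09 between ages in vehicle mice, Got2 0.08 ± 0.06 between treatments at P28 and -0.07 ± 0.06 between ages in cannabis mice, and Aldh5a1 0.08 ± 0.08 between ages in vehicle mice.

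Of the amino acid response genes, to which Slc7a11 and Slc38a2 are related as ATF4 targets, 13 of 16 were above background, with medians of 0.022 in adults and 0.012 at P28. Between treatments, the transcription factors Atf4 and Cebpb differed by 0.19 ± 0.22 and 0.08 ± 0.11 in adults, and Mthfd2, a mitochondrial folate enzyme, and Nupr1, a stress-induced gene, by 0.18 ± 0.14 and -0.07 ± 0.07 at P28. The interaction was 0.10 ± 0.09 for Nupr1 and 0.12 ± 0.13 for the folate enzyme Aldh1l2. Between ages, Cebpb and Chac1, which degrades glutathione, differed by 0.25 ± 0.11 and 0.28 ± 0.13 in cannabis mice (limma adjusted p = 0.442 and 0.462), and Aldh1l2 and Mthfd2 by -0.19 ± 0.09 and 0.26 ± 0.14 in vehicle mice.

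Of the other amino acid carriers, 5 of 12 were above background. Between treatments, the mitochondrial glutamate carrier Slc25a18 and the lysosomal cationic amino acid carrier Slc66a1 differed by -0.21 ± 0.14 and 0.05 ± 0.06 in adults, and the lysosomal histidine and peptide carrier Slc15a4 and the mitochondrial aspartate-glutamate carrier Slc25a12 by 0.16 ± 0.09 and 0.10 ± 0.16 at P28. The interaction was -0.14 ± 0.12 for Slc15a4 and -0.07 ± 0.07 for the aromatic amino acid carrier Slc16a10. Between ages, Slc16a10 and Slc25a18 differed by -0.12 ± 0.05 and -0.16 ± 0.15 in cannabis mice (limma adjusted p = 0.422 and 0.757), and Slc66a1 and Slc16a10 by -0.07 ± 0.06 and -0.05 ± 0.05 in vehicle mice.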

How the data were processed

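Hippocampal RNA of 18 samples in 4 groups was measured on Illumina bead arrays. The deposited values are log2 intensities made by the authors; every array has the same distribution (quantile-like, largest spread 0.0046 between arrays at one rank), and unexpressed probes lie near 6.8 rather than 0, so differences of dim probes may be compressed. The submitters' processing notes name Partek, and no source at hand says how values were normalized. A total of 72 per-sample columns in the other deposited tables could not be tied to a sample and were not used. Probes were named from the platform annotation: 34885 had 1 symbol, 18 several and 10378 are unnamed here.

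The background level of 6.98 is the mode of unexpressed probes (6.77) plus 3 SDs (0.0702) of the side below it. The 18249 of 45281 probes above it on at least 4 arrays were fitted with limma 3.58.1 in R 4.3.3, with a mean per group over all 18 arrays (14 residual and 3.93 prior degrees of freedom), empirical Bayes and Benjamini-Hochberg adjustment over all probes, at a threshold of 0.05. Errors after a difference are SEs. The fit was tested on simulated data with 200 changed probes per size and noise independent between probes. A cannabis difference of 0.25 log2 units was recovered for 3.5% of changed probes at P28 and 11.5% in adults, and 0% for the interaction. For 0.5 log2 units the shares were 84.5%, 85% and 54.5%. Between ages the shares for 0.25 and 0.5 were 5% and 88% in vehicle mice, and 14.5% and 85% in cannabis mice.

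The genes given in every comparison were 14 well-known carriers, with the 5 of smallest p per comparison where fewer than 5 passed; related lists give the 2 genes of smallest p per comparison, and marker lists their summed level. Members and lists were chosen with earlier results of these data known. Alternatives were other filters, priors, array weights, normexp correction, the mean of a gene's probes, blocks for replicate number, for replicates 4 and 5 and for sets of 6 arrays in order of deposit, parts of the arrays, and each array left out. Same-numbered P28 samples deviated together (correlations 0.196 to 0.534). No label says that a number marks a pair. Arrays numbered 4 and 5 also stood apart from the rest, so these correlations cannot show pairing. The block for replicate number changed no call at P28. Some correlations were below 0.1 in the other comparisons.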

Additional observations from a re-analysis of the deposited data

Results flagged for a closer look

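In 6 of 128 groups of 4 or 5 arrays, over the 32 transporter genes above background, 1 array stood apart from the rest of its group by more than Dixon's 95% limit, which chance gives in about 1 of 20 groups. Slc7a11 read 8.93 in adult cannabis replicate 2, with the next highest at 8.40, and Slc1a7 read 7.10 on the same array, with the next at 6.99. Slc6a13 read 7.37 and Slc7a6 read 7.10 in adult vehicle replicate 2, against a nearest value of 7.06 for Slc6a13 and 7.35 for Slc7a6. Slc7a8 read 8.96 in adult vehicle replicate 4, with the next lowest at 9.18, and Slc38a9 read 8.23 in P28 vehicle replicate 4, with the next lowest at 8.36. None of these arrays decides a call of the fit to all 18 arrays, since no transporter gene passed; without adult vehicle replicate 2, Slc6a13 passed between adult and P28 vehicle mice.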

How the results depend on the processing

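Of 738 re-estimates of the 5 genes of smallest p per comparison, 719 kept direction and side of the threshold, 14 came to pass it and 5 changed sign. In cannabis against vehicle mice and for the interaction, 0 transporter genes passed under every alternative. The sign changes came from part of the arrays: within replicates 4 and 5, Slc7a11 gave 0.15 at P28 and -0.10 for the interaction, Slc6a13 -0.01 for the interaction and Slc6a12 0.03 between ages in vehicle mice, and within replicates 1 to 3, Slc6a7 gave 0.028 in adults. Between adult and P28 vehicle mice, 3 genes (Slc7a14, Slc6a13 and Slc38a2) passed with sets of 6 arrays as a block and with array weights, and 2 (Slc7a14 and Slc6a13) with the replicate block and with replicates 4 and 5 as a block. Leaving out 1 array gave 0 to 1: Slc38a2 without adult cannabis replicate 4, and Slc6a13 without adult vehicle replicate 2 or P28 vehicle replicate 4. In cannabis mice 1 gene, Slc7a14, passed with sets of 6 as a block. No label says whether replicate numbers pair adult with P28 samples. Deviations of same-numbered adult and P28 arrays correlated at 0.072 to 0.574 in vehicle mice and -0.084 to 0.641 in cannabis mice.

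Counts over all probes moved more. At P28 they were 16 within replicates 4 and 5 and 0 to 11 with 1 array left out. In adults they were 2 with the replicate block and 1 within replicates 4 and 5, with 0 throughout when 1 array was left out. Between ages in vehicle mice they were 554 with sets of 6, 850 with array weights, 99 without the filter and 375 with only the groups compared. They were 359 with the replicate block, 419 with replicates 4 and 5 as a block, 4 within replicates 1 to 3, and 28 to 317 with 1 array left out. In cannabis mice they were 141 with sets of 6, 20 for probes above background on all 18 arrays, 0 with array weights, 2 with the mean of a gene's probes, 0 without the filter, 15 with normexp, 0 with only the groups compared, 53 with the replicate block, 8 with replicates 4 and 5 as a block, 12 with a trended robust prior, 0 within replicates 1 to 3, 32 within replicates 4 and 5, and 0 to 102 with 1 array left out. The cause was not tested. Within replicates 4 and 5, each P28 group held only 1 array, replicate 4. The counts of that setting at P28 and between ages therefore took their spread from the adult arrays alone. No conclusion is drawn from them. Signal over background limits Slc6a12, Slc6a13, Slc7a2, Slc3a2, Slc1a6, Slc1a7 and Slc38a11, which were below background on some arrays.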
